A study of Mus musculus with 18 samples.

Results

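The common gamma chain cytokines signal through receptors that share the chain encoded by Il2rg, and IL-15 is the member of this family on which NK cells and group 1 innate lymphoid cells depend most. The axis was described here by 10 genes chosen by symbol: Il15, Il15ra, Il2ra, Il2rb, Il2rg, Il7r, Il21r, Jak3, Stat5a and Stat5b. They are 10 of the 55396 gene identifiers in either of the 2 count tables of the study, and all 10 were present in both tables and passed the low-count filter in both. IL-15 differs from most cytokines in that the cell that makes it holds it at its surface on IL-15Rα, the product of Il15ra, and presents it to a neighboring cell that carries IL-2Rβ and the common gamma chain. JAK1 binds IL-2Rβ, JAK3 binds the common gamma chain, and the pair phosphorylate STAT5A and STAT5B, which enter the nucleus and induce survival genes such as Bcl2 and feedback inhibitors such as Cish.

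The cells came from female C57BL/6J mice, 8 to 10 weeks old, whose spleens had been injected with MC38 cells, a mouse colon adenocarcinoma line that seeds metastases in the liver, and livers were taken 20 days later. All groups therefore came from tumor-bearing mice. Lin- CD45+ NKp46+ lymphocytes were sorted from pools of 6 to 8 samples of metastasis-free liver (MFL) or liver metastasis (LM). There were 4 populations with 3 libraries each. CD49a- CD49b+ cells were taken at both sites and are called MFL NK cells and LM CD49a- NK cells. MFL also gave CD49a+ CD49b- cells, called ILC1, and LM gave cells with both markers, called LM CD49a+ NK cells, which carry ILC1 in their sample titles and CD49a+ NK cells as their cell type. Metastasis-associated macrophages (MAMs) were sorted from LM as lin- CD45+ CD11b+ cells with high or low F4/80, in 3 libraries of either subset. LM was digested with enzymes whereas MFL was pressed through a filter, so site and dissociation cannot be told apart in any comparison of LM with MFL.

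Library totals were 8795721 to 14386834 counts for the lymphocytes and 21278959 to 32267015 for the MAMs. Mitochondrial and small RNA genes took 3.68 to 15.2% of lymphocyte counts, the most in replicate 1 of MFL ILC1, and 1.14 to 1.82% of MAM counts. Lymphocyte libraries of the same group correlated less in LM (Pearson's r of log2 levels 0.755 to 0.820) than in MFL (0.856 to 0.963). The sorted lymphocytes followed the CD49a gate at the transcript level. Itga1, which encodes CD49a, read 646 to 680 CPM (the count as a share of the scaled library size) in MFL ILC1, 105 to 156 CPM in LM CD49a+ NK cells and 5.83 to 20.1 CPM in the CD49a- populations. The CD49b gate was followed less closely. Itga2, which encodes CD49b, read 25.3 to 54.2 CPM in MFL ILC1, sorted as CD49b-. In LM CD49a+ NK cells it read 65.7, 102 and 219 CPM. The CD49a- populations read 241 to 376 CPM, although all of these NK cells were sorted as CD49b+. Markers of B cells, Kupffer cells and neutrophils summed to at most 5.16 CPM in any lymphocyte library, and those of macrophages to at most 34.3 CPM except for 115 CPM in replicate 2 of MFL ILC1. Hepatocyte genes summed to 17.99 to 132 CPM in the MFL and at most 13.1 CPM in the LM libraries. Genes of tumor epithelium summed to 59.3 to 95.2 CPM in MFL ILC1, 23.8 to 51.5 CPM in LM CD49a+ NK cells and at most 4.41 CPM in the CD49a- populations. Few of the 6 genes carried these sums. In every library of the group, 2 were above 1 CPM in MFL ILC1 and 1 in LM CD49a+ NK cells. Krt19 and Krt20 were at 0 in all lymphocyte libraries. In MFL ILC1 the T cell list rested mainly on Cd3g, at 224, 522 and 668 CPM against at most 35.7 CPM elsewhere. Cd4 read 5.09, 2.78 and 1.99 CPM and Cd8a 6.28, 3.29 and 5.02 CPM in MFL ILC1. Both were at most 0.236 CPM in the other lymphocyte populations. In MFL ILC1 Cd8b1 read 1.78, 0 and 0 CPM and Cd3e was at most 0.366 CPM. Cd3d was at most 4.83 CPM there and reached 16.4 CPM in LM CD49a+ NK cells. Adgre1, which encodes F4/80, was 806 to 1167 CPM in F4/80high and 124 to 160 CPM in F4/80low MAMs.

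Sequences upstream of the RefSeq start sites are shown for Il7r and Il21r because these were the members called between lymphocyte populations. The windows are from RefSeq (table on GRCm38.p6) and were placed on GRCm39 by exact match, and both end at the base before the RefSeq start site. That of Il7r is chr15:9529963-9530126 on the minus strand, cut to 164 bases because the bases further upstream lie in an annotated exon of Il7r. This stretch lies inside the annotated span of Il7r, which reaches 9530262, so it is not upstream of the annotated gene. Its capitals mark the match to the STAT motif TTCNNNGAA. That of Il21r is chr7:125202351-125202600 on the plus strand, 250 bases, and its capitals mark the match to the RUNX motif TGTGGT on the other strand.
Il7r: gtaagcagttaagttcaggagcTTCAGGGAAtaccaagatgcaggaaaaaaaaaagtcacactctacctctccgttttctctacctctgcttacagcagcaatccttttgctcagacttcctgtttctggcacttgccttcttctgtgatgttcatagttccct
Il21r: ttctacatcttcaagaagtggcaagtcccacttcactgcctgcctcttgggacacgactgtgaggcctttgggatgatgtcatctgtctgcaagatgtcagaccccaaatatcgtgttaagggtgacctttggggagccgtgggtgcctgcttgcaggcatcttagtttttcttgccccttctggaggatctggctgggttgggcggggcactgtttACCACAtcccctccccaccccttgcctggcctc

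The table held 11 windows for 8 of the 10 members, none of them for Il15 or Il2rb. The motifs were searched on both strands in the 250 bases before each start site, and the matched stretches shown do not overlap another of these motifs. The STAT motif was in 1 of the 11 windows, that of Il7r, and in 7.02% of all 32851 windows. The RUNX motif was in 2, those of Il21r and Il2rg, and in 14.0% of all. The T-box motif AGGTGTGA was in 1 of the windows of Stat5a and in 1.12% of all. The IRF motif (GAAA, any pair of bases, GAAA) was in none of the 11 and in 2.98% of all.

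The ligand gene, Il15 (ENSMUSG00000031712.11, GRCm39 chr8:83054226-83129874, minus strand), was low and variable in lymphocytes. It read 4.65, 3.98 and 4.92 CPM in the NK cells of MFL, and the ILC1 read 3.74, 3.00 and 2.65 CPM. It read 3.01, 15.4 and 0.0788 CPM in LM CD49a- NK cells and 0, 4.46 and 0 CPM in LM CD49a+ NK cells, where the counts were 0, 57 and 0. The LM libraries spread over the whole range of the MFL libraries, and no difference of Il15 between populations was called (lowest adjusted p = 0.765 over the 6 pairs; quasi-likelihood test of edgeR, adjusted over all 13594 genes by Benjamini-Hochberg and called under 0.1).

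Il15ra (ENSMUSG00000023206.17, chr2:11710101-11739128, plus strand), the presenting chain, was highest on average in LM CD49a+ NK cells, where it read 47.2, 16.97 and 26.3 CPM (mean 30.1 ± 15.5, SD, n = 3). The LM CD49a- NK cells read 6.57, 1.99 and 11.3 CPM, and the MFL NK cells 0.327, 8.11 and 11.2 CPM. The 3 LM CD49a+ libraries lay above all 6 libraries of the CD49a- NK cells. In MFL ILC1 it read 7.30, 19.9 and 23.8 CPM, which overlapped the LM CD49a+ NK cells. The log2 difference of ILC1 from MFL NK cells was 1.37, and only limma-voom called it (adjusted p = 0.056). The log2 difference of LM CD49a+ from LM CD49a- NK cells was 2.18 (SE 1.05) and did not pass the test (edgeR adjusted p = 0.435). That from MFL NK cells was 2.20 (SE 1.05, edgeR adjusted p = 0.513). Libraries of 1 group differed widely, with 4 to 153 counts among the MFL NK libraries alone.

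The shared chains were the most abundant members in every lymphocyte population. Per kb of exon, Il2rb (ENSMUSG00000068227.10, chr15:78363456-78395566, minus strand), which encodes the signaling chain shared by the IL-2 and IL-15 receptors, stood at 465 ± 21.2 CPM in MFL NK cells (SD, n = 3), 589 ± 38.4 in LM CD49a- NK cells, 640.1 ± 72.4 in LM CD49a+ NK cells and 581 ± 47.3 in MFL ILC1. Il2rg (ENSMUSG00000031304.19, chrX:100307984-100311861, minus strand), the common gamma chain, came next at 146 to 183 CPM per kb, and no other member exceeded a mean of 65.6 CPM per kb. As CPM, Il2rb read 1979, 2129 and 1961 in MFL NK cells and between 2386 and 3115 in the 9 other lymphocyte libraries, so the MFL NK cells lay below all others. The largest of these differences, 0.46 on the log2 scale for LM CD49a+ NK cells (SE 0.20), was not called by edgeR (adjusted p = 0.48) and was called by DESeq2 (adjusted p = 0.0668). That for MFL ILC1 was 0.32, and only limma-voom called it (adjusted p = 0.0011). Il2rg read 308 to 500.3 CPM over the 12 libraries with overlap between all populations, and its differences ran from −0.19 to 0.32 on the log2 scale.

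**Figure D1:**
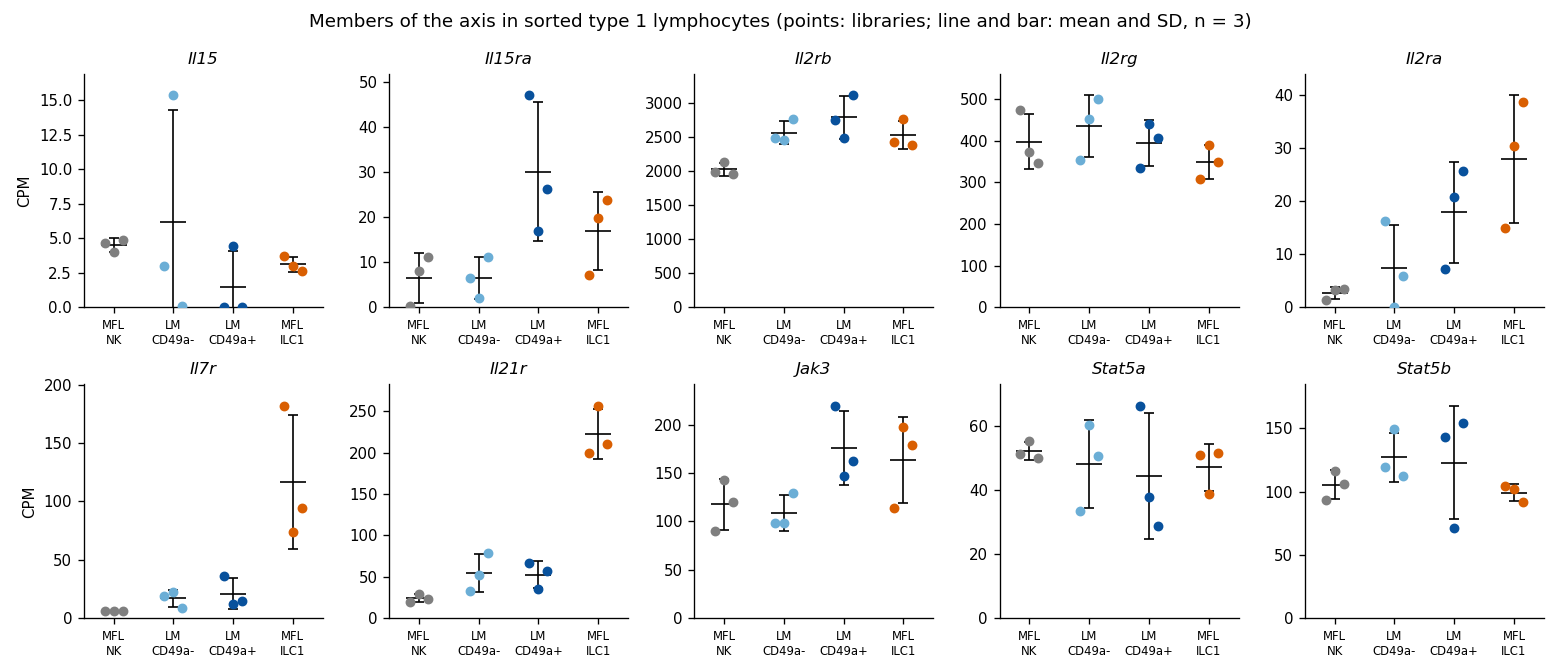
CPM of the 10 members in the 4 sorted lymphocyte populations, with a separate linear axis from 0 for each gene; points are libraries and the line and bar are the mean and SD (n = 3), bars that would reach below 0 (Il15 and Il2ra) being clipped there. Il7r and Il21r stand apart in MFL ILC1, at 73.6 to 182 and 200 to 257 CPM, while Il2rb lies between 1961 and 3115 CPM in all 12 libraries.

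Among the private receptor chains, Il7r and Il21r were higher in MFL ILC1 than in each of the other 3 populations. Il7r (ENSMUSG00000003882.6, chr15:9505874-9530262, minus strand) encodes the chain that pairs with the common gamma chain to bind IL-7. It read 182, 73.6 and 94.5 CPM in MFL ILC1 and 5.96, 6.19 and 6.02 CPM in the NK cells of that site. In the metastasis it read 19.4, 22.8 and 8.59 CPM in LM CD49a- NK cells and 36.2, 12.4 and 14.4 CPM in LM CD49a+ NK cells. Every ILC1 library was above every NK library, and both LM populations lay between the ILC1 and the MFL NK cells without overlap with either. The difference of ILC1 from MFL NK cells was 4.27 on the log2 scale (SE 0.58, 19.2-fold, edgeR adjusted p = 0.000241). Between LM CD49a+ NK cells and ILC1 the difference was −2.48 (SE 0.54, edgeR adjusted p = 0.0166), which without replicate 1 of MFL ILC1 became −2.00 (adjusted p = 0.196). Between LM CD49a- NK cells and ILC1 it was −2.79 (SE 0.55, edgeR adjusted p = 0.00575).

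Il21r (ENSMUSG00000030745.10, chr7:125202601-125232756, plus strand) encodes the chain that confers binding of IL-21. It read 200, 257 and 211 CPM in MFL ILC1 and 19.8, 29.0 and 23.4 CPM in MFL NK cells. In the metastasis it read 32.4, 52.1 and 78.8 CPM in CD49a- and 66.2, 35.0 and 56.8 CPM in CD49a+ NK cells. The 6 LM libraries lay above the MFL NK cells and below the ILC1 without overlap. ILC1 exceeded MFL NK cells by 3.21 on the log2 scale (SE 0.36, 9.23-fold, edgeR adjusted p = 3.14e-05). The differences from ILC1 were −2.08 for LM CD49a+ NK cells (SE 0.35, edgeR adjusted p = 0.00216) and −2.03 for LM CD49a- NK cells (SE 0.34, edgeR adjusted p = 0.00173). These calls on Il21r held in all 14 alternatives tried for each pair.

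Relative to MFL NK cells, neither gene was called in the LM populations by edgeR, although no libraries overlapped. For LM CD49a+ NK cells the log2 differences were 1.79 for Il7r (SE 0.53, edgeR adjusted p = 0.242) and 1.13 for Il21r (SE 0.34, edgeR adjusted p = 0.25), and DESeq2 called both (adjusted p = 0.0529 and 0.0774). For LM CD49a- NK cells they were 1.48 (SE 0.53, edgeR adjusted p = 0.699) and 1.18 (SE 0.34, edgeR adjusted p = 0.472), of which DESeq2 called that of Il21r (adjusted p = 0.093). Fewer cells with the transcript and less transcript per cell cannot be told apart in these bulk libraries.

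Il2ra (ENSMUSG00000026770.6, chr2:11647618-11698004, plus strand) encodes the chain that raises the affinity of the receptor for IL-2. It read 14.9, 30.3 and 38.7 CPM in MFL ILC1 against 1.47, 3.32 and 3.38 CPM in MFL NK cells, with no overlap. In the metastasis it read 7.17, 20.7 and 25.7 CPM in CD49a+ NK cells and 16.3, 0 and 5.83 CPM in CD49a- NK cells. The difference of ILC1 from MFL NK cells was 3.35 (SE 1.27) and was not called in the fit of 12 libraries (edgeR adjusted p = 0.315). It was called when those 6 libraries were fitted alone (edgeR adjusted p = 0.00485), without a low-count filter (0.0813), by DESeq2 (adjusted p = 0.0426) and by limma-voom (adjusted p = 7.2e-05).

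The signaling members differed less. Jak3 (ENSMUSG00000031805.18, chr8:72123007-72143225, plus strand) read 220, 147 and 162 CPM in LM CD49a+ NK cells and 97.8, 98.3 and 130 CPM in LM CD49a- NK cells, which did not overlap, and the log2 difference of 0.70 (SE 0.27) was not called (edgeR adjusted p = 0.375). It read 90.2 to 143 CPM in MFL NK cells and 113 to 198 CPM in MFL ILC1, a log2 difference of 0.47 that only limma-voom called (adjusted p = 0.0195). Stat5a (ENSMUSG00000004043.15, chr11:100750177-100776065, plus strand) lay between 28.8 and 66.4 CPM in all 12 libraries. Stat5b (ENSMUSG00000020919.12, chr11:100671556-100741589, minus strand) lay between 71.5 and 154 CPM, and their log2 differences between populations were at most 0.23 and 0.36 in size. Jak3 shares exonic bases with Insl3 on its own strand, which was at most 13.2 CPM. Stat5a overlaps an exon of the more abundant Stat3 on the opposite strand, and Stat5a and Stat5b are similar in sequence, so their shares of the reads depend on how the estimates divided them.

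Set against all genes tested, 2 of 10 members were called between MFL ILC1 and MFL NK cells, both higher in ILC1, where 3.06% of all 13594 genes were called, 1.38% higher and 1.68% lower. Between LM CD49a+ NK cells and ILC1, 2 of 10 were called, both lower, against 3.58% of all genes, 1.29% lower and 2.29% higher. Between LM CD49a- NK cells and ILC1, 2 of 10 were called, both lower, against 4.42% of all genes, 1.60% lower and 2.82% higher. These are the same 2 genes, and the comparisons share the ILC1 libraries. Within the metastasis, no member was called by edgeR between the CD49a+ and the CD49a- NK cells, where 0.140% of all genes were called. Jak3 alone had an unadjusted p under 0.05 there, and neither DESeq2 nor limma-voom called any member. None was called between LM CD49a+ and MFL NK cells (background 0.647%, of which 0.427% higher in LM), where 5 members had an unadjusted p under 0.05, DESeq2 called 3 and limma-voom 0. None was called between LM CD49a- and MFL NK cells (background 0.0736%, of which 0.0662% higher in LM), where 2 members had an unadjusted p under 0.05, DESeq2 called 1 and limma-voom 0.

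By the overlap of libraries, 6 of 10 members of the LM CD49a+ NK cells lay above the MFL NK cells in every library, where 20.1% of all genes did not overlap in either direction. These were Il15ra, Il2rb, Il2ra, Il7r, Il21r and Jak3. For LM CD49a- against MFL NK cells it was 3 of 10 (Il2rb, Il7r and Il21r) against 16.2%. For LM CD49a+ against LM CD49a- cells it was 2 of 10 (Il15ra and Jak3) against 9.82%. Those 3 and 2 members were all higher in the first-named population. Against ILC1, 2 of 10 did not overlap for the LM CD49a+ NK cells (background 23.2%), Il7r and Il21r, both below ILC1. For the LM CD49a- NK cells it was 3 of 10 (background 22.6%), with Il7r and Il21r below and Stat5b above ILC1. Between ILC1 and MFL NK cells 5 of 10 did not overlap (background 25.3%): Il2rb, Il2ra, Il7r and Il21r were above and Il15 below.

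The CD49a difference was then compared between the sites. CD49a+ cells differed from CD49a- cells in Il7r by 4.27 in MFL and by 0.31 in LM (SE 0.51), and the difference of these differences was −3.96 on the log2 scale (SE 0.75, edgeR adjusted p = 0.018). For Il21r the values were 3.21 in MFL and −0.05 in LM (SE 0.33), with an interaction of −3.25 (SE 0.48, edgeR adjusted p = 0.00262). Both are therefore genes in which the MFL pair of populations differed more than the LM pair. The other 8 members did not pass this test, and 2 of 10 compares with 1.03% of all genes, 0.405% with a negative and 0.625% with a positive interaction. The interaction of Il7r was lost without replicate 1 of MFL ILC1 (edgeR adjusted p = 0.115) and with limma-voom (adjusted p = 0.201), and that of Il21r held in all 19 alternatives. The CD49a+ cells of the 2 sites are not matched populations, since those of MFL lack CD49b and those of LM carry it. Cd3g, Cd4, Cd8a and the sum of the tumor epithelium genes were also highest in MFL ILC1, at the levels given above. Their part in the result was not tested.

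**Figure D2:**
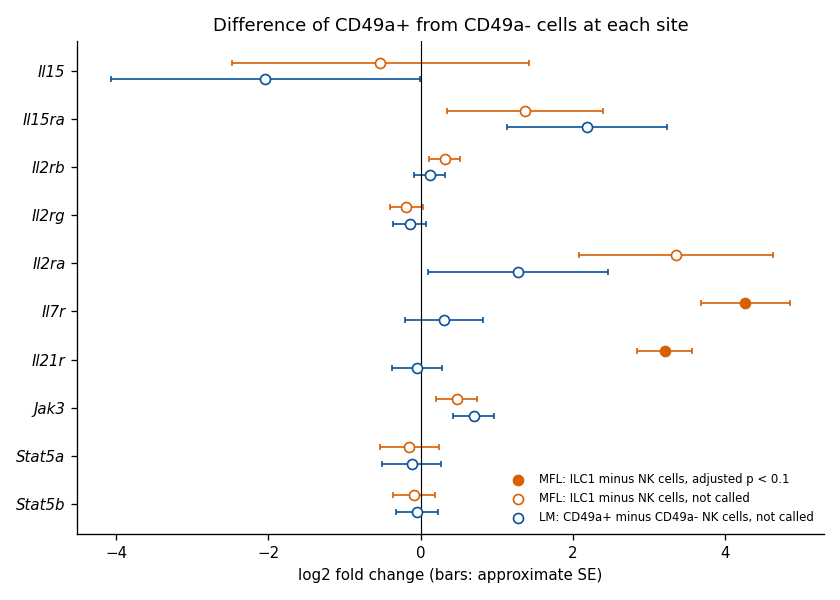
Log2 fold change of CD49a+ over CD49a- cells for each member in MFL (orange, ILC1 minus NK cells) and in LM (blue, CD49a+ minus CD49a- NK cells); bars are the approximate SE, filled points have an adjusted p under 0.1 and open points do not. Il7r and Il21r are at 4.27 and 3.21 in MFL and at 0.31 and −0.05 in LM.

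The wider pathway was described with 44 further genes: other ligands, receptor chains, kinases and STATs, feedback inhibitors, PI3K and MAPK components, targets, and genes linked to the induction or shedding of IL-15. In lymphocytes 38 passed the filter. Of 6 further cytokine genes, Il2, Il4, Il7, Il9, Il21 and Tslp, 1 did so, Il7, which was at most 6.10 CPM. Il9r, the chain for IL-9, was at most 0.0732 CPM.

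Between MFL ILC1 and MFL NK cells 8 of the 38 were called, 4 higher and 4 lower (background 3.06%, median log2 difference of the list −0.06 and of all genes 0.01). The feedback inhibitors Cish and Socs2, both STAT5 target genes, were higher in ILC1. Cish read 119, 189 and 180 CPM against 33.9, 13.6 and 22.0 CPM, a log2 difference of 2.81 (SE 0.46, edgeR adjusted p = 0.00131). Socs2 read 68.8, 82.0 and 89.2 CPM against 10.1, 4.35 and 3.96 CPM, a difference of 3.70 (SE 0.67, edgeR adjusted p = 0.00335). Prf1, the perforin gene, was lower, at 203 to 233 CPM against 994 to 1571 CPM (−2.50, SE 0.25, edgeR adjusted p = 1.29e-05). Gab2, an adaptor that links receptors to PI3K, was lower at 4.50 to 6.37 CPM against 41.0 to 49.9 CPM (−2.97, SE 0.57, edgeR adjusted p = 0.00518). These 4 calls held without any single library. Those of Il4ra (1.40) and of the cytokine gene Osm (−2.33) were lost without any one of the 6 libraries, with edgeR adjusted p values up to 0.299 and 0.411. That of the survival kinase gene Pim2 (1.18) was lost without replicate 1 or 3 of either group (highest edgeR adjusted p = 0.14), and that of Jak1 (−0.98) without replicate 2 of MFL ILC1 (edgeR adjusted p = 0.127).

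Cish was also higher in both LM populations than in MFL NK cells, and it was the pathway gene called in most lymphocyte contrasts with MFL NK cells. It read 103, 134 and 206 CPM in LM CD49a+ NK cells (2.67, SE 0.45, edgeR adjusted p = 0.0112) and 101, 59.9 and 231 CPM in LM CD49a- NK cells (2.50, SE 0.45, edgeR adjusted p = 0.0675). The first call held without any single library. The second was lost without replicate 1 of the LM CD49a- NK cells (edgeR adjusted p = 0.103) or any replicate of the MFL NK cells (highest 0.332). Pim2, at 118, 92.6 and 154 CPM in LM CD49a+ and 45.4, 52.5 and 45.5 CPM in MFL NK cells, was called (1.34, SE 0.27, edgeR adjusted p = 0.0315), a call lost without replicate 3 of the LM CD49a+ NK cells or any replicate of the MFL NK cells (highest 0.236). These were 2 of 38 genes against a background of 0.647%, and Cish alone was 1 of 38 against 0.0736%. The 3 comparisons share the MFL NK libraries. Inside the metastasis, between CD49a+ and CD49a- NK cells, 0 of 38 were called by edgeR, 7 had an unadjusted p under 0.05, DESeq2 called 2 and limma-voom 0.

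**Figure D3:**
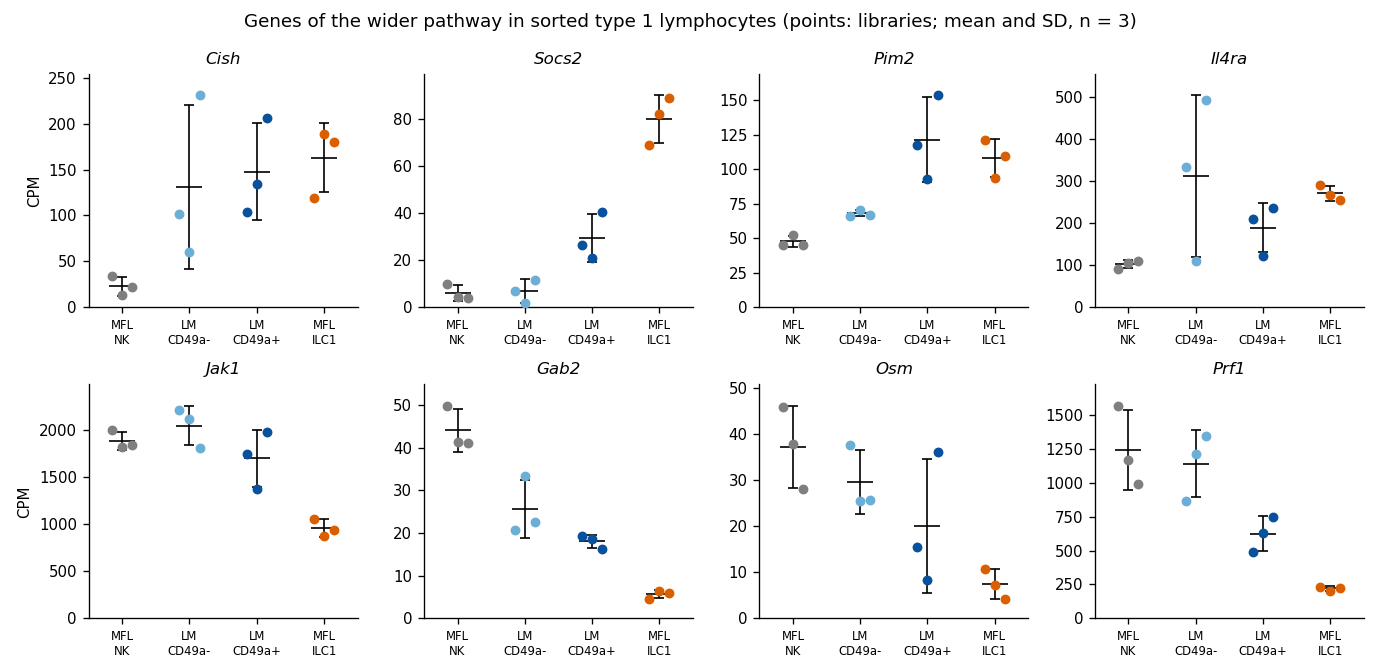
CPM of the 8 pathway genes called between MFL ILC1 and MFL NK cells, in the 4 lymphocyte populations, each on a linear axis from 0; points are libraries and the line and bar are the mean and SD (n = 3). Cish is lowest in MFL NK cells (13.6 to 33.9 CPM) and overlaps among the other 3 populations, while Prf1 is lowest in MFL ILC1 (203 to 233 CPM).

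Against MFL ILC1, 7 pathway genes were called in LM CD49a+ NK cells, 6 higher and 1 lower (background 3.58%), and 10 in LM CD49a- NK cells, 9 higher and 1 lower (background 4.42%). Socs3, a feedback inhibitor that acts mainly on STAT3 signaling, was 185, 114 and 391 CPM in CD49a+ and 254, 148 and 389 CPM in CD49a- NK cells against 42.7 to 49.6 CPM in ILC1 (2.33, SE 0.41, edgeR adjusted p = 0.0031, and 2.53, SE 0.41, edgeR adjusted p = 0.0011). Prf1 was higher in both (1.503, edgeR adjusted p = 0.00193, and 2.38, edgeR adjusted p = 1.81e-05). Stat3 (1.41 and 1.63) and Jak1 (0.83 and 1.098) were called in both as well, and in the CD49a- NK cells these calls held without any single library. Socs2 was lower in LM CD49a- NK cells, at 7.13, 1.77 and 11.8 CPM (−3.53, SE 0.67, edgeR adjusted p = 0.00429). Its difference in LM CD49a+ NK cells, at 26.7, 21.0 and 40.6 CPM, was not called. Gzmb, the granzyme B gene, was lower in LM CD49a+ NK cells (−1.20, SE 0.28, edgeR adjusted p = 0.0262), a call lost without replicate 3 of either group (0.101 and 0.105). Without any single library of the pair, the calls of Stat3, Jak1, Myc (1.51) and Nfkb1 (1.05) in the CD49a+ NK cells were each lost at least once, with edgeR adjusted p values up to 0.324. In the CD49a- NK cells this applied to 5 of the 10 calls, among them Gab2 (2.19), Pim1 (2.04) and Rela (1.21), with values up to 0.237.

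Macrophages and dendritic cells are among the cells that present IL-15. In the MAMs Il15 itself read 9.82, 6.39 and 8.00 CPM in F4/80low and 8.06, 7.09 and 8.20 CPM in F4/80high MAMs, and the groups overlapped. Its log2 difference, F4/80high minus F4/80low, was −0.05 (SE 0.18, edgeR adjusted p = 0.836, over 13759 genes). Il15ra read 18.2, 14.9 and 11.2 CPM in F4/80low and 5.94, 6.09 and 6.19 CPM in F4/80high MAMs without overlap, and was lower in F4/80high by a log2 difference of −1.28 (SE 0.18, edgeR adjusted p = 0.000723). The ligand transcript thus did not pass the test whereas that of its presenting chain did, and the difference between these 2 genes was not tested.

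The receptor chains were lower in F4/80high MAMs. Il2ra read 40.7, 38.9 and 23.5 CPM in F4/80low and 3.56, 2.13 and 1.52 CPM in F4/80high MAMs, a log2 difference of −3.87 (SE 0.32, edgeR adjusted p = 4.22e-05). Il7r read 46.0, 28.7 and 51.0 CPM in F4/80low and 6.03, 3.83 and 3.21 CPM in F4/80high MAMs, a difference of −3.28 (SE 0.28, edgeR adjusted p = 4.95e-05). These were the largest differences among the members, and no libraries overlapped. Il2rg read 262 to 283 CPM in F4/80low and 131 to 156 CPM in F4/80high MAMs (−0.92, SE 0.09, edgeR adjusted p = 9.79e-05). Il21r read 156 to 174 CPM and 130 to 142 CPM (−0.31, SE 0.08, edgeR adjusted p = 0.0153), a small difference in which the groups still did not overlap.

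Il2rb was the least certain member. It read 18.5, 22.3 and 4.28 CPM in F4/80low and 6.48, 1.98 and 5.61 CPM in F4/80high MAMs, so that replicate 3 of F4/80low lay among the F4/80high libraries. The difference of −1.69 (SE 0.60) was called (edgeR adjusted p = 0.0465) but not without replicate 1 or 2 of F4/80low (0.113 and 0.148) or replicate 2 of F4/80high MAMs (0.118). It was also lost with limma-voom (adjusted p = 0.128) and with a replicate block (edgeR adjusted p = 0.103). Some genes of cytotoxic lymphocytes were likewise lowest in replicate 3 of F4/80low: Gzmb read 6.07, 8.61 and 0.389 CPM and Prf1 4.83, 4.44 and 0.432 CPM. Of the 7 NK and ILC1 markers in the table, 5 were lowest in that library, among them Klrk1 at 102, 73.8 and 58.1 CPM and Cd7 at 17.8, 18.9 and 6.79 CPM. Itga1 was highest in it, at 8.57, 8.88 and 10.1 CPM, and Itga2 was lowest in replicate 2. Their part in the Il2rb result was not tested.

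Of the signaling members, Stat5a was lower in F4/80high MAMs, at 34.0, 35.2 and 36.8 CPM against 93.2, 105 and 73.9 CPM (−1.36, SE 0.13, edgeR adjusted p = 8.03e-05). Stat5b was lower by less, at 76.0 to 93.9 CPM against 118 to 121 CPM (−0.51, SE 0.09, edgeR adjusted p = 0.00247). Jak3 read 100.5, 105 and 132 CPM against 134, 126 and 139 CPM, which overlapped, and was not called (−0.24, SE 0.11, edgeR adjusted p = 0.123), though it passed the threshold without replicate 3 of F4/80high (0.00904), with a replicate block (0.0743) and with limma-voom (adjusted p = 0.0233). Per kb of exon, Il2rg was the highest member in both subsets (114 ± 4.44 and 60.3 ± 5.31 CPM, SD, n = 3), followed by Il21r (49.3 ± 2.93 and 39.8 ± 1.87 CPM).

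**Figure D4:**
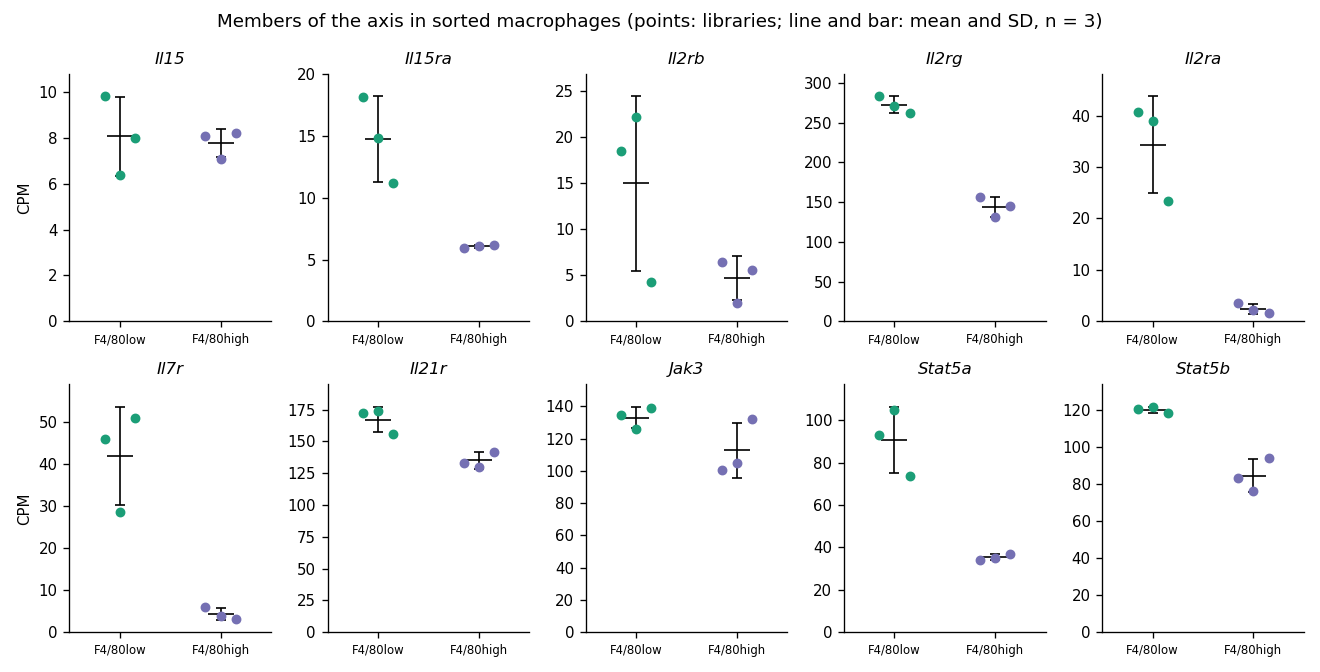
CPM of the 10 members in the 2 MAM subsets, each on a linear axis from 0; points are libraries and the line and bar are the mean and SD (n = 3). All members except Il15, Il2rb and Jak3 are lower in F4/80high than in F4/80low MAMs without overlap, and the third F4/80low library of Il2rb, at 4.28 CPM, lies among the F4/80high libraries.

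In all, 8 of 10 members were lower in F4/80high MAMs and called, where 27.1% of all genes were lower and called and 54.9% were called in either direction. The groups did not overlap in 7 of 10 members, all lower in F4/80high, against 58.4% of all genes in either direction. The median log2 difference was −1.101 over the members and 0.01 over all genes. Of the 44 pathway genes 38 were in the table, and 34 of them were called, 28 lower and 6 higher in F4/80high MAMs (median −0.49), where 27.1% and 27.8% of all genes were. The 8 with the largest differences were all lower: Socs2 (−3.08), Prf1 (−3.03), Cish (−2.86), Gzmb (−2.54), Pim1 (−2.05), Osm (−1.73), Ccnd2 (−1.68) and Ccnd3 (−1.62). Cish read 52.9, 46.0 and 35.3 CPM in F4/80low and 9.14, 5.10 and 4.51 CPM in F4/80high MAMs (SE 0.27, edgeR adjusted p = 7.56e-05). Gzmb and Prf1 overlapped between the subsets, and the call of Gzmb was lost without replicate 2 of either subset (edgeR adjusted p = 0.132 for F4/80low and 0.112 for F4/80high). All 5 genes linked to the induction or shedding of IL-15 were called: Irf1 (−0.48), Nfkb1 (−0.95) and Rela (−0.43) were lower and the sheddase genes Adam17 (0.43) and Adam10 (0.24) higher in F4/80high MAMs, the call of Adam10 being lost without replicate 1 or 3 of F4/80high or replicate 1 of F4/80low (edgeR adjusted p up to 0.219).

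Markers of other cells moved with the MAM subsets. The 7 genes of mature migratory dendritic cells, which leave tissues through CCR7, summed to 835 to 1666 CPM in F4/80low and 43.0 to 65.5 CPM in F4/80high libraries, and all 7 were called lower in F4/80high. Conventional dendritic cell genes summed to 269 to 418 CPM and 22.4 to 25.3 CPM, with 6 of 7 called lower, and classical monocyte genes to 2062 to 2285 CPM and 452 to 574 CPM, with 5 of 5 lower. NK and ILC1 genes summed to 81.1 to 140.5 CPM and 5.81 to 10.1 CPM, with 6 of 7 lower, and Ncr1, which encodes NKp46, had no row. T cell genes overlapped (6.31 to 16.5 CPM and 5.46 to 13.1 CPM) and none was called. Macrophage genes summed to 9300.4 to 11571 CPM in F4/80low and 18941 to 24888 CPM in F4/80high libraries, with 7 of 8 called higher. Neutrophil genes, of which 4 of 6 were in the table, summed to 10.5 to 80.6 CPM and 0.315 to 1.07 CPM, with 4 of 4 called lower. B cell genes overlapped in their sums (6.36 to 19.7 CPM and 18.6 to 36.9 CPM) and 1 of 5 was called, higher in F4/80high. Of the 4 Kupffer cell genes, 2 were called higher and 1 lower, with sums of 8.997 to 10.6 CPM and 6.00 to 14.6 CPM. Of the 6 tumor epithelium genes 2 were in the table, both called lower, and summed to 197 to 281 CPM in F4/80low and 8.30 to 11.8 CPM in F4/80high libraries. The part of these differences in the member results was not tested, and a change within macrophages cannot be told apart from a change in the mixture of cells.

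**Figure D5:**
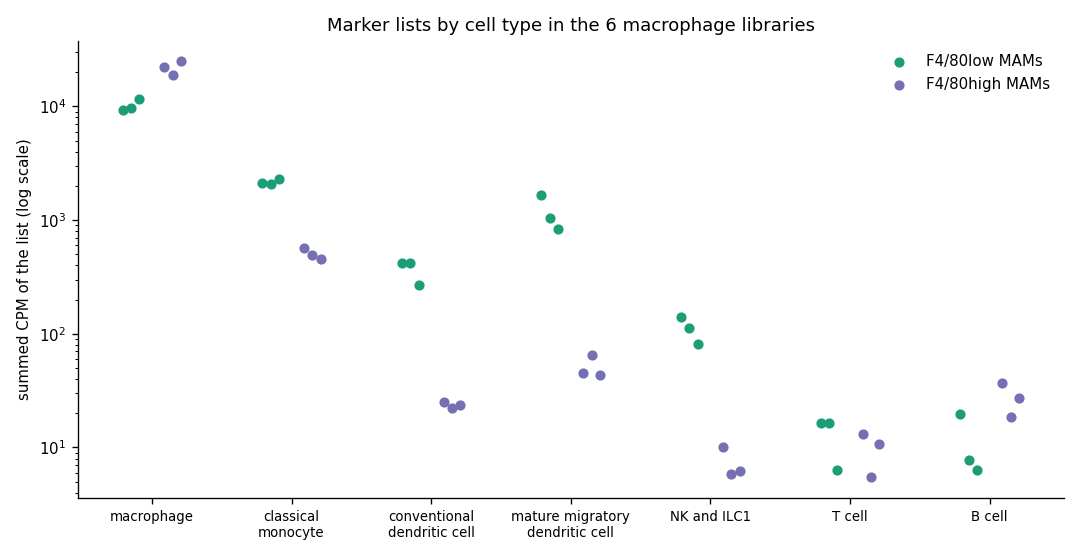
Summed CPM (log scale) of 7 marker lists in the 6 MAM libraries, F4/80low in green and F4/80high in purple; each point is 1 library. Mature migratory dendritic cell genes sum to 835 to 1666 CPM in F4/80low and to 43.0 to 65.5 CPM in F4/80high libraries, and macrophage genes are higher in F4/80high libraries.

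The genes whose levels most resembled those of the members were also listed, by Pearson's r of log2 CPM, as a description over libraries that share group differences. Over the 12 lymphocyte libraries and 9775 genes of at least 5 CPM, Il7r was closest to Crot (0.925), Gm36723 (0.922) and Cd226 (0.921). Il2rb was closest to Ppp1r16b (0.97), 1700017B05Rik (0.89) and Irf2bp2 (0.89), and Il15ra to H1f0 (0.91), Rcor1 (0.90) and A430103D13Rik (0.86). Over the 6 MAM libraries and 10080 genes, Il15 was closest to Mcoln1 (0.95), Col4a1 (0.95) and Rab10os (0.93), and Il15ra to Cacnb1 (0.998), Birc2 (0.996) and Itprip (0.995).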

How the data were processed

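Sorted lymphocytes (12 libraries, total RNA, stranded) and MAMs (6 libraries, poly(A), directional) were sequenced in bulk. For the lymphocytes the authors trimmed reads with Trim Galore, assigned them to GRCm39 transcripts with Salmon 1.5.0 and summed them to genes. For the MAMs the submitters' processing notes name Salmon 1.10.0, and the step to genes is not given in the sources used here. Both deposited tables hold estimated counts that had not been normalized, already as whole numbers.

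Gene identifiers were named from GENCODE vM39 (GRCm39), which held 53700 of 54309 lymphocyte and 13726 of 13759 MAM identifiers; the lowest gene total in the MAM table was 37. The 10 members and all lists were chosen with earlier results of these data known. All 10 members are named in each comparison, and of the 44 pathway genes up to 8 called genes per comparison with the largest change. Libraries were scaled by TMM, filtered with filterByExpr and compared with edgeR 4.0.16 (quasi-likelihood test, R 4.3.3, limma 3.58.1, DESeq2 1.42.0, Python 3.11.15) in a fit of 12 libraries and another of 6, with Benjamini-Hochberg adjustment over all genes and calls under 0.1. SEs were the log2 fold change over the square root of F and are approximate. Levels are CPM after TMM, and levels of different genes were compared per kb of all exons of the gene. The fit was tested on simulated data with 200 genes changed by the same large amount, for LM CD49a+ against LM CD49a- NK cells and for the MAMs. Smaller differences, the other pairs and the interaction were not simulated. Correlations used log2 CPM with a prior count of 2.

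The lymphocytes came from 3 independent sortings, the labels tie replicate numbers neither to these nor to animals, and p-values measure the spread between these libraries (for the lymphocytes, sorted pools of 6 to 8 samples), which may be partly technical. With 3 libraries against 3 an exact permutation test cannot go below 0.1, so the model fits were used. No 2 libraries were duplicates. Alternatives were other scaling, no filter, DESeq2, limma-voom, a replicate block, each library left out, a threshold of 0.05, removal of mitochondrial and small RNA genes, the compared libraries alone, and another gene length. No protein sequences were used here.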

Additional observations from a re-analysis of the deposited data

Results flagged for a closer look

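The difference of CD49a+ from CD49a- NK cells in LM was compared with that of ILC1 from NK cells in MFL. For 2 members these differences were not alike. The CD49a+ cells of the 2 sites are not matched populations, so site and cell type cannot be told apart here. The interaction was −3.96 for Il7r (edgeR adjusted p = 0.018) and −3.25 for Il21r (edgeR adjusted p = 0.00262), on the log2 scale, in LM minus MFL. Of the 38 pathway genes tested, 3 differed as well: Il4ra by −2.12 (edgeR adjusted p = 0.0974), Cish by −2.64 (edgeR adjusted p = 0.0622) and Prf1 by 1.63 (edgeR adjusted p = 0.0354), which compares with 1.03% of all genes. In each the MFL pair of populations was further apart than the LM pair. Il4ra read 290, 268 and 254 CPM in MFL ILC1 and 92.2, 106 and 110 CPM in MFL NK cells, against 210, 123.2 and 236 CPM in LM CD49a+ and 334, 109 and 493 CPM in LM CD49a- NK cells. The call of Il7r was lost without replicate 1 of MFL ILC1 (edgeR adjusted p = 0.115) and with limma-voom (adjusted p = 0.201), and held in 17 of 19 alternatives. Leaving out 1 library ended the call of Il4ra in 11 of 12 cases, that of Cish in 7 of 12 and that of Prf1 in 2 of 12 (replicate 2 of MFL ILC1 and replicate 1 of MFL NK cells). Groups of 3 libraries are too small for a test of single outlying libraries.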

How the results depend on the processing

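No called difference of a member reversed under any alternative, and of the recomputed log2 differences 642 kept their direction and side of the threshold, 16 passed it only under the alternative, 8 no longer passed it and 7 changed sign. Differences of lymphocyte pairs under 0.5 that were never called were not followed singly. Uncalled differences that changed sign were those of Il15 between LM CD49a- NK cells and ILC1 (main 0.97; −1.85 with limma-voom, −0.75 with the replicate block, −1.02 to 1.55 with each library left out), of Il15 between the MAM subsets (main −0.05; −0.20 to 0.11 with each library left out), of Il15 in the interaction (main −1.51; −8.62 to 0.49) and of Il2ra between LM CD49a- and MFL NK cells (main 1.43; −0.053 with limma-voom). The counts of members called moved from 0 or by more than 1.5 times in these cases: LM CD49a+ against MFL NK cells from 0 to 3 with DESeq2 and 2 without a filter, LM CD49a- against MFL NK cells from 0 to 1 with DESeq2, ILC1 against MFL NK cells from 2 to 6 with limma-voom, the interaction from 2 to 1 with limma-voom (1 to 2 with each library left out), and LM CD49a+ NK cells against ILC1 from 2 to between 1 and 2 with each library left out. Smaller moves also occurred. Between ILC1 and MFL NK cells Il2ra was gained with DESeq2, without a filter and with the 6 libraries alone. Between the MAM subsets single libraries left out lost Il2rb or gained Jak3.

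Same-numbered libraries did not deviate together (correlations −0.045 to 0.098 in lymphocytes and −0.015 to 0.17 in MAMs), and the labels do not say that a number marks a sorting, although the study's lymphocytes came from 3 independent sortings. Whether the numbers follow the sortings is not known. The replicate block moved no count of members beyond 1.5 times, the MAM count staying at 8 with Il2rb lost (edgeR adjusted p = 0.103) and Jak3 gained (0.0743). Limma-voom shifted the median log2 difference of all genes to between −0.36 and −0.27 in the comparisons of LM with MFL. The counts over all genes behind the background shares also moved. With each library left out, they ranged from 5 to 267 between the NK populations of LM, 26 to 162 and 1 to 110 for LM CD49a+ and LM CD49a- against MFL NK cells, 268 to 299 for ILC1 against MFL NK cells, 257 to 585 and 316 to 930 for the LM populations against ILC1, 75 to 256 for the interaction and 6550 to 7234 for the MAMs. By tool, 19 genes between the NK populations of LM became 543 with DESeq2 and 0 with limma-voom, 88 between LM CD49a+ and MFL NK cells became 365 and 307, 10 between LM CD49a- and MFL NK cells became 161 and 104, and 416 between ILC1 and MFL NK cells became 667 and 2645. Pathway genes called went from 2 to 9 and 7 in the second of these, from 1 to 4 and 5 in the third and from 8 to 11 and 19 in the fourth. With the longest transcript as length, Il2rb and Il2rg stayed the highest members per kb in all lymphocyte groups. The levels themselves depended on the length used: 36 levels per kb moved by at least the SD of their group and 24 did not. Il2rg in MFL NK cells went from 167 to 238 CPM per kb. Il15 had 0 to 139 counts in the lymphocyte libraries, and the part of depth in this spread was not tested.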
